A study of Mus musculus with 25 samples.

Results

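Lungs of mice given the compound SEW-2871 alone were compared with lungs of control mice on expression arrays. The SEW group held the 3 arrays titled as drug controls for SEW, and the control group the 4 arrays titled as controls, together 7 of the 25 arrays of the study. SEW mice received 0.1 mg/kg SEW-2871 by intraperitoneal injection 2 times a week and no radiation (n = 3 mice). The FTY and fTyS groups, used here for a comparison of compounds, received FTY720 and (S)-FTY-phosphonate at the same dose and schedule, also without radiation (n = 3 mice each). Control mice received phosphate-buffered saline (PBS), by a route the labels do not give (n = 4 mice). All mice were female wildtype C57BL/6J, 14 to 17 weeks old and 20 to 25 g in weight, so the results are those of healthy young adult female lung. The length of treatment and the time from the last injection to collection are not given in the sources used here. The other 4 groups of the study received radiation. Their arrays entered the means that chose each gene's probe set and the genes tested, and the estimate of the spread. They also entered a check of direction and a comparison with 1 control array. Total RNA of lung, which mixes all its cell types, was labelled and hybridised to Affymetrix arrays, and a gene's value is log2(signal + 16) of 1 probe set.

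Sphingosine 1-phosphate (S1P) is a lipid signal that is high in blood and lymph and low inside tissues. It acts through a family of G protein-coupled receptors. On endothelial cells the receptor S1pr1 strengthens the junctions that keep plasma inside vessels, and on lymphocytes it guides cells out of lymphoid organs. SEW-2871 is an agonist selective for S1pr1 and is not built on the sphingosine backbone. FTY720, a sphingosine analogue, is phosphorylated in the body and then acts on several S1P receptors. (S)-FTY-phosphonate is an analogue of that phosphate with a phosphonate in its place. The lung holds the largest capillary bed of the body, and its endothelium expresses S1pr1 strongly.

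SEW lungs differed from control lungs over a broad set of genes, most of them by a small amount. Of 12937 genes tested, 1889 (14.6%) had an adjusted p of at most 0.05 and are called here: 488 higher (3.77%) and 1401 lower (10.8%) in SEW lungs. Only 43 called genes changed more than 2-fold, 28 of them higher and 15 lower, and the median size of a called change was 0.348 log2 units. The signals of SEW and control arrays did not overlap for 3573 genes (27.6%), 1735 of which were called. Among called genes whose arrays did not overlap, the 15 largest increases were mostly in immunoglobulin genes, and the others included the chemokine gene Cxcl13, the innate defence genes Fcna and Slpi, and Fkbp5 and Pdk4 of the glucocorticoid list. The largest decreases among such genes were in the transcription factor genes Prdm8 and Egr1, the endothelial secreted proteoglycan gene Esm1 and the DNA demethylase gene Tet1. The number of calls depended strongly on single arrays: it was 592 without SEW 1, 891 without SEW 3 and 856 without control 3.

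**Figure D1:**
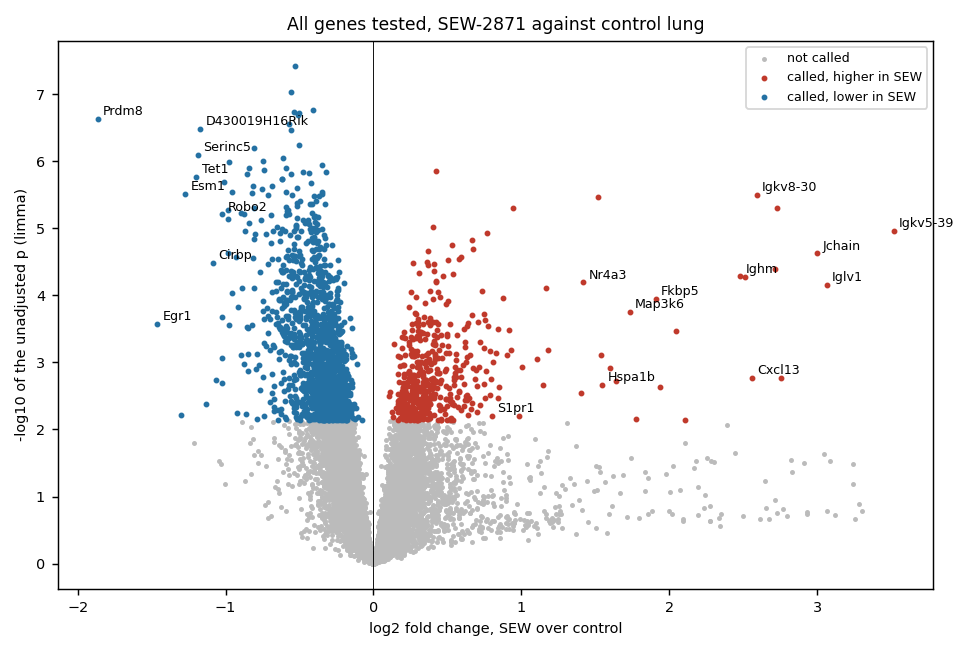
Log2 fold change of SEW over control (x axis) against −log10 of the unadjusted limma p (y axis) for all 12937 genes tested, with called genes in red (higher in SEW) and blue (lower in SEW). Among called genes, Igkv5-39, Iglv1 and Jchain lie farthest to the right and Prdm8 farthest to the left; several genes that were not called, such as the skeletal muscle gene Myh1 (3.3), lie as far to the right with a smaller −log10 p.

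The tissue and the RNA were checked before the gene groups. Defining lung genes were high and close in both groups: the surfactant gene Sftpc had a mean of 13.3 log2 units in SEW and in control lungs, the club cell gene Scgb1a1 13.5 and 13.52, the alveolar type 1 gene Ager 13.05 and 13.1, and the endothelial gene Cdh5 12.42 and 12.51. The mean of 15 skeletal muscle genes was 11.39, 6.61 and 11.33 in SEW arrays 1, 2 and 3, against 6.55, 10.93, 6.59 and 6.31 in control arrays 1 to 4. SEW 1, SEW 3 and control 2 thus stood apart. The 9 squamous keratins separated the same arrays (10.94, 8.19 and 10.79 in SEW; 8.24, 10.6, 8.29 and 8.25 in control). The mean of 12 fat genes was 11.6, 9.32 and 10.92 in SEW, against 8.45, 9.98, 8.89 and 8.09 in control. The median difference was 2.19 for muscle and 1.93 for fat genes. None of either list was called by limma, where 1 of 15 muscle and 8 of 12 fat genes had an unadjusted p under 0.05, and array weights called 1 and 9. The ratio of 3′ to 5′ signal of beta-actin, which rises as RNA breaks down, was 0.269, 0.326 and 0.323 on the log2 scale in SEW and 0.537, 0.533, 0.609 and 0.443 in control. The same ratio of Gapdh was -0.17, 0.065 and -0.118 in SEW and 0.346, 0.076, 0.355 and 0.099 in control. Neither ratio overlapped between the groups, and their part in the results below was not tested beyond the fits that carry them as covariates. With the actin ratio in the fit, 86 genes were called, with the Gapdh ratio 331, and with muscle and fat means 1907. Leaving out SEW 1, SEW 3 and control 2 leaves a single SEW array. Calls are not read from that fit, and only differences are given. Correlations of arrays across genes ran from 0.9516 to 0.9944 in SEW and from 0.9605 to 0.9855 in control.

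**Figure D2:**
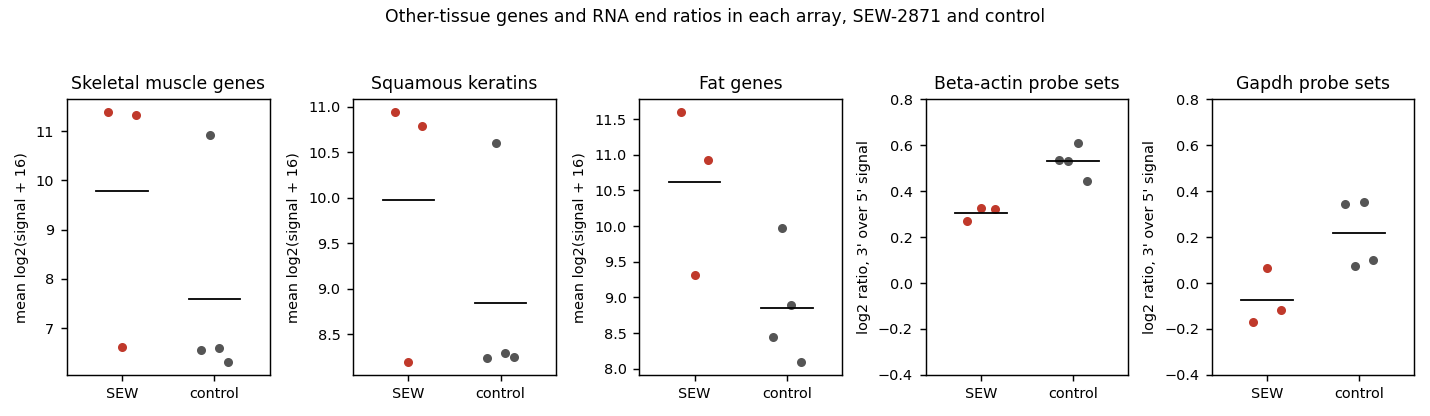
Each point is an array of SEW (red, left) or control (grey, right) and each line a group mean: the mean log2(signal + 16) of skeletal muscle, squamous keratin and fat genes, and the log2 ratio of 3′ to 5′ signal of beta-actin and Gapdh. SEW 1, SEW 3 and control 2 were high in muscle and keratin genes, and the actin ratio was at most 0.326 in SEW and at least 0.443 in control.

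Antibody genes made up most of the largest increases. The joining chain gene Jchain, whose product links IgM and IgA into polymers, had 12.25, 12.37 and 12.55 log2 units in SEW lungs, against 9.19, 9.68, 9.3 and 9.38 in control lungs. All 3 SEW arrays lay far above all control arrays. The difference was 3.0 ± 0.55 (SE; adjusted p = 0.0022), an 8.01-fold higher signal. In bulk tissue, more cells of a type and more RNA per cell cannot be told apart. The IgM heavy chain gene Ighm had 12.64, 12.79 and 12.91 in SEW, against 9.87, 10.34, 10.49 and 10.49 in control, and again the groups did not overlap (2.48 ± 0.48, adjusted p = 0.00309). Igha, the heavy chain of the IgA of airway secretions, had 11.86, 11.83 and 11.43 in SEW and 9.56, 9.28, 9.6 and 10.2 in control (2.05 ± 0.47, adjusted p = 0.00844). Jchain, Ighm and Igha were called in each fit that left out 1 array. With the actin ratio in the fit they were at 2.91, 2.36 and 2.11 and not called, nor was Ighm with the Gapdh ratio (2.13).

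Variable segments of the kappa and lambda light chains, which give antibodies their antigen specificity, were called higher as well. Igkv5-39 had the largest difference among called genes, 3.52 ± 0.60. Its values were uneven, 9.79, 8.64 and 7.2 in SEW, while control arrays stayed between 4.77 and 5.27. Igkv8-30 was more even, with 12.36, 12.46 and 12.67 in SEW, against 9.56, 9.71, 10.13 and 10.22 in control (2.59 ± 0.40, adjusted p = 0.00093). Iglv1 rose by 3.07 ± 0.61 and Igkv6-14 and Igkv9-120 by 2.73 and 2.72. Of 19 symbols of the heavy and light chain loci on the array, 11 passed the filter on low values. Of these, 10 were called higher, against 3.77% of all genes, and the exception was Ighv14-2, at -0.74 (adjusted p = 0.298). A gene high in the compound groups alone could pass that filter, so this count is a description. For 4 of the 11, among them Igkv5-39, Igkv6-14 and Igkv9-120, the control mean was below the filter. With no filter on low values these 3 were called too (adjusted p = 0.002, 0.00158 and 0.00362). Of all genes named in this comparison, 10 called genes had 1 group's mean below the filter, and 9 of them were called with no filter. The locus had 6 higher calls with the Gapdh ratio in the fit and 3 with the actin ratio. With SEW 1, SEW 3 and control 2 left out, Igkv5-39 was at 3.59, Ighm at 2.51 and Igkv8-30 at 2.49. Of the 8 symbols below the filter, 6 had the higher mean in SEW. Control 4 stood apart among the controls, with a locus mean of 7.82 against 7.37 to 7.4, and SEW arrays were at 9.73, 9.84 and 9.78. Probe sets of these genes share near-identical sequence, so which segment rose is uncertain. The 11 probe sets named Ighm ran from -0.24 to 5.31 in the same comparison, and the other 2 of Iglv1 were at 0.29 and 0.88. Ighg3, the IgG3 heavy chain, was called at 2.76 ± 0.76 (adjusted p = 0.0218) but not without SEW 3 (2.28), control 2 (2.61) or control 3 (2.67).

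**Figure D3:**
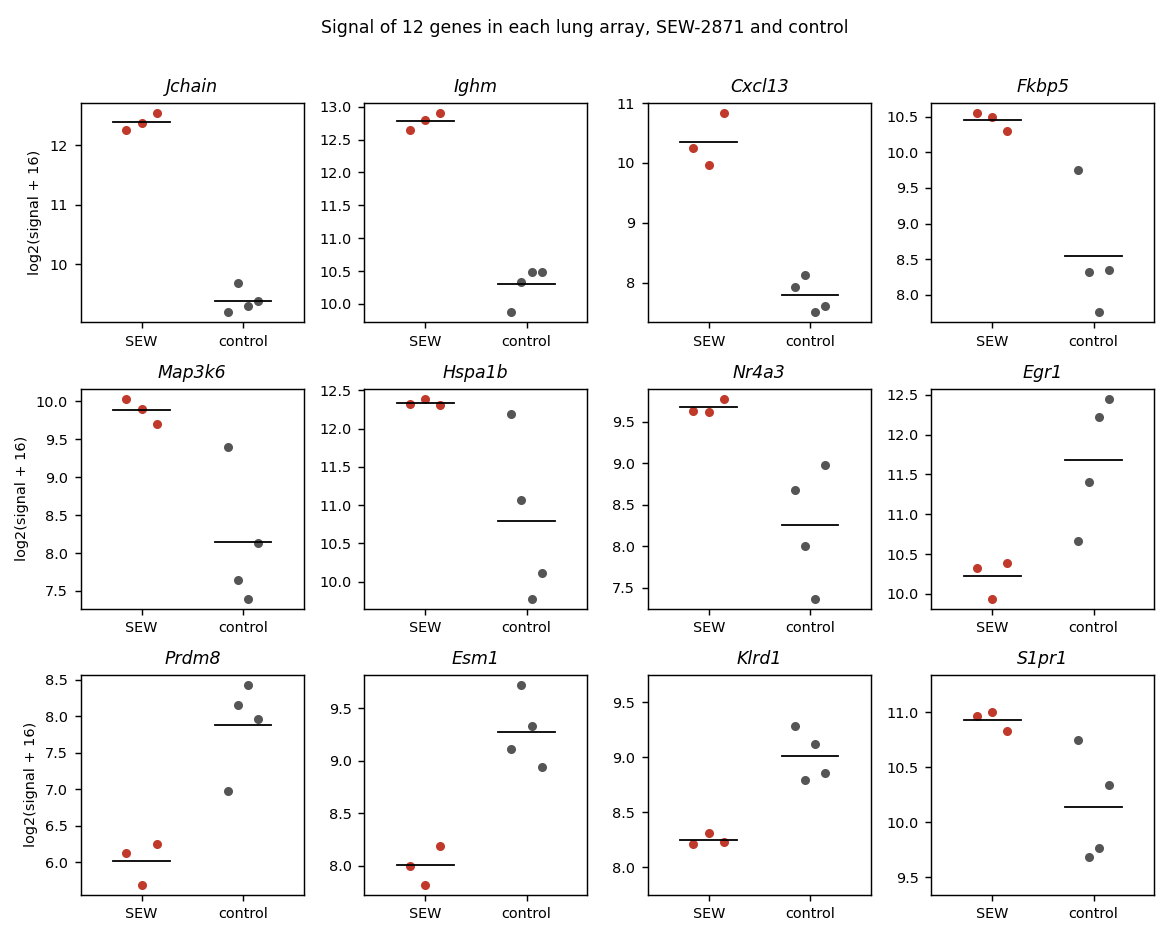
Signal, as log2(signal + 16), of 12 genes in each SEW array (red, left) and each control array (grey, right), with lines at the group means. Jchain, Ighm and Cxcl13 separate the groups widely, while Fkbp5, Map3k6 and Hspa1b have 1 control array, control 1, near the SEW arrays.

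The wider list of plasma cell genes followed only in part. Of 19 members tested, 11 were called higher and 1 lower, against 3.77% and 10.8% of all genes. The list includes Jchain, Ighm, Igha, Ighg3 and Iglv1, described above, so their calls are counted again here. The median difference was 0.58, against -0.0205 over all genes. Mzb1, an endoplasmic reticulum cochaperone of antibody-making B cells, had 8.94, 9.51 and 9.81 in SEW and 7.97, 8.2, 8.48 and 8.31 in control (1.18 ± 0.29, adjusted p = 0.0124). Irf4, a transcription factor needed for plasma cells, rose by 0.72 ± 0.22 (adjusted p = 0.0364). Creld2 (0.58) and Herpud1 (0.32) are secretory stress genes that many cell types express. The other plasma cell transcription factors were not called: Xbp1 was at 0.17 (adjusted p = 0.117), Prdm1 at -0.29 (0.15) and the coactivator Pou2af1 at 0.84 (0.118). Sdc1, a proteoglycan of plasma cells that lung epithelium also makes, fell by 0.20 with 12.12, 12.13 and 12.1 in SEW, against 12.29 to 12.37 in control. Without SEW 3 the list had 5 calls, and with the actin ratio in the fit 1. With SEW 1, SEW 3 and control 2 left out, Jchain was at 3.08 and Ighg3 at 2.31.

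Genes of B cells and T cells were not called. Of 19 B cell genes, 0 were called by limma, 0 had an unadjusted p under 0.05 and 0 were called with array weights. Their median was -0.03, and the surface antigen gene Ms4a1 was at 0.60 (adjusted p = 0.346). Of 16 T cell genes, 0 were called, 3 had an unadjusted p under 0.05 and 3 were called with array weights. Their median was -0.11, and Ccr7, the receptor that brings naive cells into lymph nodes, was at -0.83 (adjusted p = 0.0571). The 95% intervals of these genes were wide: they reached 0.22 to 0.97 log2 units to either side in the B cell list (median 0.64) and 0.22 to 1.2 in the T cell list (median 0.77). Cxcl13, the chemokine that draws B cells into follicles, had 10.24, 9.97 and 10.84 in SEW, against 7.93, 8.13, 7.5 and 7.6 in control. The SEW arrays lay above all controls, and the difference was 2.56 ± 0.70 (adjusted p = 0.0215). It was no longer called without SEW 1 (2.61), SEW 3 (2.31) or control 3 (2.46), and it was 1.39 with muscle and fat means in the fit.

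Lists of natural killer cells and of monocytes held 2 lower calls each, of 13 and 16 genes tested, a share near the 10.8% of all genes called lower. Klrd1, a lectin-like subunit of natural killer receptors, had 8.21, 8.31 and 8.23 in SEW, against 9.29, 8.79, 9.12 and 8.86 in control (-0.77 ± 0.15, adjusted p = 0.00292). It was called in each fit that left out a single array. Klra8, an activating receptor of mouse natural killer cells, was at -1.06 ± 0.30 (adjusted p = 0.0226), with control 1 highest at 8.75. Its call was lost without any 1 SEW array or control 1 (-1.21 to -0.78 over the arrays). The median of the natural killer and cytotoxic list was -0.27. Cx3cr1, the fractalkine receptor of patrolling monocytes, had 7.12, 7.04 and 7.07 in SEW, against 7.7, 7.74, 8.34 and 7.9 in control (-0.85 ± 0.19, adjusted p = 0.00798). Ccr2, the receptor that brings inflammatory monocytes to tissue, was at -0.77 ± 0.20 (adjusted p = 0.0167), and not called without SEW 1 (-0.73). The median of the monocyte and macrophage list was -0.04. Of 10 neutrophil genes, 0 were called by limma, with 2 at an unadjusted p under 0.05 and 1 called with array weights. Of 14 dendritic cell and MHC class II genes, 0 were called, with 2 at an unadjusted p under 0.05 and 2 called with array weights.

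Slpi and Fcna, genes of innate defence, were among the 15 largest increases. Slpi, a protease inhibitor of mucosal secretions, had 12.26, 10.53 and 11.66 in SEW, against 9.41, 9.72, 9.02 and 10.04 in control (1.94 ± 0.55, adjusted p = 0.0258). SEW 2 was closest to the controls. Slpi was not called without SEW 1 (1.55), SEW 3 (1.85) or control 3 (1.76). The difference was 1.28 with muscle and fat means in the fit, where it was called. With the Gapdh ratio it was 1.11 and with the actin ratio 1.17, and not called in either. With SEW 1, SEW 3 and control 2 left out, Slpi was at 1.04. Fcna, a ficolin of macrophages that recognises sugars on microbes, was at 2.11 ± 0.70 (adjusted p = 0.0495). It lost its call with any of the 7 arrays left out (1.89 to 2.48), was not called with no filter on low values (adjusted p = 0.0648), and was 0.85 with muscle and fat means in the fit.

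Genes known to be induced by glucocorticoids formed the next group. Of 18 tested, 7 were called higher, against 3.77% of all genes, and none lower, and the median was 0.75. Fkbp5, a cochaperone of the glucocorticoid receptor and a sensitive target of it, had 10.56, 10.5 and 10.3 in SEW, against 9.75, 8.32, 7.75 and 8.35 in control. The difference was 1.91 ± 0.40 (adjusted p = 0.00466), a 3.76-fold higher signal, and it was called in each fit that left out 1 array. Its other probe sets, both of lower signal, were at 0.76 and -0.01, and the mean of all 3 was at 0.88 and called. Map3k6, a stress kinase gene, had 10.03, 9.9 and 9.7 in SEW and 9.39, 7.64, 7.4 and 8.13 in control (1.73 ± 0.38, adjusted p = 0.00615). Zbtb16, a zinc finger repressor, had 12.37, 12.35 and 12.35 in SEW, against 12.34, 10.41, 10.13 and 10.92 in control (1.40 ± 0.41, adjusted p = 0.0293).

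In each of these genes control 1 was the control array nearest to SEW, and for Zbtb16 it was level with the SEW arrays. Tsc22d3, the anti-inflammatory leucine zipper gene also known as Gilz, showed this too, with 12.39, 12.42 and 12.37 in SEW, against 12.25, 11.44, 11.12 and 11.79 in control (0.74 ± 0.18, adjusted p = 0.0117). Angptl4, an inhibitor of lipoprotein lipase, was at 1.60 ± 0.43 (adjusted p = 0.0177), and Sult1a1, a sulfotransferase, at 0.76. Pdk4, the kinase that turns muscle and fat from glucose to fatty acids, was at 1.77 ± 0.59 (adjusted p = 0.0491). Its levels were 11.5, 9.94 and 11.44 in SEW and 9.65, 9.73, 8.76 and 8.61 in control. They were highest in SEW 1 and SEW 3, whose muscle and fat means were both high. Control 2, with a muscle mean of 10.93, was close to control 1, with 6.55. The Pdk4 difference was 0.64 with muscle and fat means in the fit. Fam107a, which was not on the list, was at 1.54 ± 0.39 (adjusted p = 0.0135), and not called without SEW 1 (1.56) or control 3 (1.34).

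Other well known targets were not called: Per1 was at -0.02 (adjusted p = 0.959), Sgk1 at 0.12 (0.497) and Dusp1 at 0.01 (0.972). Mt2, a metallothionein, was at 1.37 (adjusted p = 0.0852). The list had 2 calls without SEW 1, 3 without control 2 or without control 3, 5 with muscle and fat means in the fit, 3 with the Gapdh ratio, and none with the actin ratio. The call of Zbtb16 was lost without SEW 1, SEW 2, SEW 3, control 2 (1.22) or control 3 (1.13), Angptl4 without SEW 1 (1.57), SEW 3 (1.62), control 2 (1.35) or control 3 (1.33), Pdk4 without 5 of the 7 arrays (1.51 to 2.28 over the arrays), and Tsc22d3 without SEW 1 (0.75).

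Most heat shock genes tested were called higher, against 3.77% of all genes. In a list of heat shock, cold-inducible and unfolded protein genes, 14 of 19 tested were called higher and 1 lower, with a median of 0.41. A longer list of cytosolic and mitochondrial chaperones was added later. It shares genes such as Hspa1a, Hspa1b and Hsph1 with the first, so their calls are counted again. In the longer list, 14 of 20 were called higher, with a median of 0.54. Array means of the longer list were 11.23, 11.16 and 11.24 in SEW, against 11.06, 10.62, 10.26 and 10.54 in control. Control 1 was again nearest to SEW. Hspa1a and Hspa1b encode the inducible chaperone Hsp70 in near-identical copies, so they cannot be read apart. Hspa1b had 12.32, 12.39 and 12.31 in SEW, against 12.19, 11.07, 9.78 and 10.12 in control (1.55 ± 0.44, adjusted p = 0.0249). Hspa1a was at 1.64 ± 0.46 (adjusted p = 0.0233). Both calls were lost without SEW 1, SEW 2, SEW 3, control 3 (1.37 for Hspa1a, 1.21 for Hspa1b) or control 4 (1.45 for Hspa1a, 1.32 for Hspa1b).

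Several cochaperones were called higher as well. Hsph1, a nucleotide exchange factor of Hsp70, had 11.42, 11.44 and 11.57 in SEW and 11.43, 10.09, 9.45 and 10.5 in control, so that control 1 overlapped the SEW arrays (1.11 ± 0.28, adjusted p = 0.0144). It was not called without SEW 1 (1.14), SEW 3 (1.06) or control 3 (0.80). Dnajb1 (0.78), Hspb1 (0.75), Stip1 (0.66), Dnaja1 (0.64) and Fkbp4 (0.59) were called higher, as were the mitochondrial chaperonins Hspd1 (0.49) and Hspe1 (0.36). The constitutive chaperones Hspa8 (0.19, adjusted p = 0.072) and Hsp90aa1 (0.16, adjusted p = 0.0941) were not called. The opposite call was Cirbp, an RNA-binding protein gene that cold induces, with 8.95, 8.84 and 9.12 in SEW, against 9.41, 10.34, 10.72 and 9.74 in control (-1.08 ± 0.20, adjusted p = 0.00251). Cirbp was called in each fit that left out 1 array. The longer list had 6 calls without SEW 1, SEW 3 or control 3, 12 with muscle and fat means, 6 with the Gapdh ratio and none with the actin ratio. With SEW 1, SEW 3 and control 2 left out, Hspa1b was at 1.69 and Hsph1 at 0.98.

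Chaperones of the endoplasmic reticulum, where secreted proteins such as antibodies fold, were counted in a list of their own, which was added later. It shares Hspa5 with the first chaperone list and Creld2 with the plasma cell list, so their calls are counted again. Of 20 tested, 10 were called higher, against 3.77% of all genes, and none lower, with a median of 0.28. Array means were 11.26, 11.24 and 11.25 in SEW, against 11.17, 10.83, 10.85 and 11.07 in control. Manf was at 0.64, Edem1 at 0.61, Creld2 at 0.58 ± 0.11 (adjusted p = 0.00235) and Sdf2l1 at 0.57. Hspa5, the main Hsp70 of that compartment, had 12.67, 12.6 and 12.61 in SEW and 12.55, 12.07, 12.13 and 12.44 in control (0.32 ± 0.10, adjusted p = 0.0332). Hsp90b1 (0.06), Canx (0.03) and Hyou1 (-0.01) were not called. The list had 2 calls without SEW 1 or without control 3, 12 with muscle and fat means in the fit, 3 with the Gapdh ratio and none with the actin ratio.

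Promoters of both chaperone groups were searched for the letters of their best known control elements. Windows reached from 250 bases before to 50 after the start site (RefSeq, build GRCm38.p6; 27025 genes), and both strands were read. The letters GAANNTTCNNGAA, 3 units of the heat shock element, stood in 4 of the 17 cytosolic and mitochondrial chaperone genes with a window (Hsph1, Hspd1, Hspe1 and Chordc1, all called higher), against 0.662% of all genes. The shorter GAANNTTC, which is part of the longer motif, stood in 11 of 17, against 9.04% of all genes. The letters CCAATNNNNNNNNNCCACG of the endoplasmic reticulum stress element stood in 7 of 18 genes of the endoplasmic reticulum list (among them Hspa5, Creld2 and Calr, which were called), against 0.137% of all genes. Neither heat shock motif was found in the 18, and the stress element was not found in the 17. In all, 14 of the 17 and 9 of the 18 were called higher, with or without a match. A match describes the letters of a window and no more. Shown are the 150 bases before the start site, 5′ to 3′ on the gene's strand, of Hspe1 (chr1:55087998-55088147, + strand), Hspa1b (chr17:34959239-34959388, - strand), Hspa5 (chr2:34771940-34772089, + strand) and Creld2 (chr15:88819496-88819645, + strand). They show 1 called gene for each heat shock motif and 2 for the stress element, on either strand, and capitals mark the matched letters.
Hspe1: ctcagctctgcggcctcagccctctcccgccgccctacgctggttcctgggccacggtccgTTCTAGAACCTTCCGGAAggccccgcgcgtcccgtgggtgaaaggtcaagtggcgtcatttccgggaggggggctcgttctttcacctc
Hspa1b: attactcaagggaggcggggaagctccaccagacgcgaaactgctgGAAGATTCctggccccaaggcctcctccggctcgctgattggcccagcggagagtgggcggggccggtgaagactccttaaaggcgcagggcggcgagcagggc
Hspa5: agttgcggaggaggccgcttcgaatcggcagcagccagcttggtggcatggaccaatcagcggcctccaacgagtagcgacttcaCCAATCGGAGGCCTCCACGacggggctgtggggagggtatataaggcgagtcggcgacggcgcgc
Creld2: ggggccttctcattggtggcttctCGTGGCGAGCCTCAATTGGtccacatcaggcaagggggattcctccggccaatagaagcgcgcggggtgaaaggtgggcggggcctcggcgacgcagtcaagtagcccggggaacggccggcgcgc
Hspe1 carried 2 overlapping matches of the long heat shock motif, 89 to 72 bases before its start, in a region that the divergent gene Hspd1 shares. Hspa1b carried the short motif 104 to 97 bases before its start. The stress element lay 65 to 47 bases before the start in Hspa5 and 126 to 108 bases before it, on the opposite strand, in Creld2.

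Immediate early genes, transcription factor and regulator genes that switch on quickly after a stimulus, held 7 lower calls and 1 higher among 20 tested, against 10.8% of all genes called lower. The other 12 were not called, and the median was -0.24. Egr1, a zinc finger transcription factor, had 10.33, 9.94 and 10.39 in SEW, against 10.66, 11.41, 12.22 and 12.45 in control. The groups did not overlap, and the difference was -1.46 ± 0.33 (adjusted p = 0.00752). Fos had 10.8, 10.09 and 10.91 in SEW and 11.29, 11.2, 11.97 and 12.03 in control (-1.02 ± 0.26, adjusted p = 0.0143). Junb, which pairs with Fos, was at -0.81 ± 0.14 (adjusted p = 0.00166), and the orphan nuclear receptor gene Nr4a1 at -1.03 ± 0.29 (adjusted p = 0.024). Ier3 (-0.47), Ier2 (-0.42) and Jund (-0.21) were also called lower.

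The related receptor gene Nr4a3 went the other way, with 9.63, 9.62 and 9.78 in SEW, against 8.68, 8.0, 7.37 and 8.98 in control (1.42 ± 0.28, adjusted p = 0.00342). Jun, at 0.08 (adjusted p = 0.528), was not called. Egr1 and Nr4a3 were called in each fit that left out 1 array. Fos was not called without SEW 2 (-0.77) or control 3 (-0.91), nor Nr4a1 without SEW 1, SEW 2, control 3 or control 4 (-1.21 to -0.81 over the arrays). Control 4 had the highest mean of this list among all 7 arrays (10.71, against 10.11, 10.01 and 10.22 in SEW and 10.17, 10.19 and 10.24 in the other controls). The list had 3 lower calls without control 3, 6 with muscle and fat means in the fit, 1 with the Gapdh ratio and none with the actin ratio.

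The 15 largest decreases held few genes of 1 pathway. Prdm8, a transcriptional regulator best known from the nervous system, fell most, with 6.12, 5.69 and 6.25 in SEW, against 6.98, 8.16, 8.43 and 7.96 in control. The difference was -1.87 ± 0.24 (adjusted p = 0.000431), a signal 0.274 times that of control. Esm1, a proteoglycan that activated and angiogenic endothelium secretes, had 8.0, 7.82 and 8.19 in SEW and 9.11, 9.72, 9.33 and 8.94 in control (-1.27 ± 0.20, adjusted p = 0.00093). Serinc5, a membrane protein gene that restricts retroviruses, had 9.34, 9.34 and 9.1 in SEW and 10.43, 10.57, 10.51 and 10.29 in control (-1.19 ± 0.17, adjusted p = 0.000778). These genes were called in each fit that left out 1 array, and also with the actin ratio, the Gapdh ratio or muscle and fat means as covariates.

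Tet1, which oxidises methylcytosine, was at -1.20 ± 0.18 (adjusted p = 0.000823), but its other 3 probe sets were at -0.08, -0.12 and -0.56. D430019H16Rik (-1.17), the axon guidance receptor gene Robo2 (-1.02), A330076H08Rik (-1.03), Smim38 (-1.01) and the matrix gene Frem1 (-0.99) were called lower with no overlap. Mx2, an interferon-induced antiviral protein gene, was at -1.13 ± 0.35 (adjusted p = 0.0361). Mx2 had 4.62 in SEW 1, against 6.9 and 6.69 in SEW 2 and SEW 3 and 6.96 to 7.48 in control, and without SEW 1 the difference was -0.41 and not called. It was also not called without control 2 (-1.07) or control 3 (-1.04). Mx2 was the sole call among 19 interferon-induced genes, whose median was -0.19. Of the 30 genes with the largest changes, 21 were called in each fit that left out 1 array, and 24 with muscle and fat means. With SEW 1, SEW 3 and control 2 left out, Prdm8 was at -2.1, Esm1 at -1.31, Tet1 at -0.95 and Mx2 at -0.25.

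The target of the compound was itself higher. S1pr1, the receptor that SEW-2871 activates, had 10.97, 11 and 10.83 in SEW, against 10.75, 9.68, 9.77 and 10.34 in control. The SEW arrays lay above all controls, closest to control 1, and the difference was 0.80 ± 0.26 (adjusted p = 0.0462). It was not called without SEW 1 (0.78), SEW 2 (0.77), SEW 3 (0.85), control 2 (0.65) or control 3 (0.68), nor with quantile normalization (0.78) or median centring (0.82). S1pr3, a receptor of vessels and airway smooth muscle, was at -0.27 (adjusted p = 0.0636), S1pr2 at -0.10 (0.541) and the leukocyte receptor gene S1pr4 at 0.11 (0.642). The other probe set of S1pr2, of similar signal, was at -0.46, and those of S1pr3, of lower signal, were at -0.17 and 0.51. S1pr5, a receptor of natural killer cells, did not pass the filter, with 5.72, 5.3 and 5.78 in SEW and 6.52, 6.03, 6.1 and 5.47 in control.

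Of 12 genes that make, move and degrade S1P, 1 was called higher and 2 lower, against 3.77% and 10.8% of all genes. With so few calls, neither share is read as a result about these genes as a group. Spns2, the exporter of S1P from endothelium, had 10.23, 10.21 and 10.27 in SEW and 10.35, 10.67, 10.8 and 10.54 in control (-0.35 ± 0.10, adjusted p = 0.0242). Plpp1, a surface phosphatase of lipid phosphates, had 11.83, 12.06 and 11.78 in SEW and 11.6, 11.33, 11.58 and 11.29 in control (0.44 ± 0.12, adjusted p = 0.0196). Sgpp1, an intracellular S1P phosphatase, was at -0.18 (adjusted p = 0.0381). Arrays of both groups were apart in each of these, but the calls were fragile. Spns2 was lost without SEW 1, SEW 2, SEW 3, control 2 or control 3 (-0.43 to -0.28 over the arrays), Plpp1 without SEW 1, SEW 2 or control 2 (0.36 to 0.49), and Sgpp1 without SEW 1, SEW 2, control 2, control 3 or control 4 (-0.23 to -0.16). The kinases Sphk1 (0.27, adjusted p = 0.299) and Sphk2 (-0.22, adjusted p = 0.0651) and the lyase Sgpl1 (-0.09, adjusted p = 0.539) were not called. Their other probe sets, of lower signal, were at -0.34 for Sphk1, -0.58 for Sphk2 and -0.21 for Sgpl1. Apom, which carries S1P in plasma, stayed below the filter in all 7 arrays. Of 22 ceramide and sphingomyelin enzymes, Galc was the only call (-0.36).

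Endothelial genes had calls both ways: of 22 tested, 2 were called higher and 2 lower, against 3.77% and 10.8% of all genes, with a median of -0.02. With so few calls, neither share is read as a result about the list. Besides S1pr1, the sialomucin gene Emcn was higher (0.52 ± 0.15, adjusted p = 0.0301). Kdr, the main receptor for vascular endothelial growth factor, had 11.64, 11.67 and 11.65 in SEW and 11.84, 11.97, 12.12 and 12.03 in control (-0.34 ± 0.08, adjusted p = 0.0103). Ednrb, an endothelin receptor gene, was at -0.26. Emcn was not called without SEW 1 (0.58), SEW 2 (0.38), control 2 (0.46) or control 3 (0.50), Kdr without SEW 1 (-0.33), and Ednrb without SEW 1, SEW 3 or control 3 (-0.31 to -0.22 over the arrays). Of 16 junction genes, which seal endothelium and epithelium, 3 were called lower, with a median of -0.06 and the same 10.8% of all genes called lower: the tight junction gene Ocln (-0.31), the junctional adhesion gene F11r (-0.21) and the E-cadherin gene Cdh1 (-0.15). None of the 3 was called in every fit that left out 1 array (5 to 7 of the 7 fits lost them), and F11r was at 0.09 as the mean of all its probe sets.

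Lists of matrix genes, of the cells that make them and of alveolar epithelium held 2 lower calls each, shares near the 10.8% of all genes called lower. Col1a1, the alpha 1 chain of type I collagen, had 9.13, 8.74 and 9.35 in SEW, against 9.46, 9.79, 9.8 and 9.99 in control (-0.69 ± 0.14, adjusted p = 0.00412). Its partner Col1a2 was at -0.02 (adjusted p = 0.881). Pdgfrb, the growth factor receptor of pericytes, had 11.19, 11.34 and 11.31 in SEW and 11.58, 11.61, 11.86 and 11.88 in control (-0.45 ± 0.09, adjusted p = 0.0042). Col1a1 and Mmp14 (-0.24) were the 2 calls among 20 collagen and matrix genes, whose median was -0.18. Mmp14 was not called without SEW 2 (-0.19). In alveolar epithelium, Pdpn (-0.26) and Akap5 (-0.38) of 12 type 1 cell genes and Etv5 (-0.49) and Muc1 (-0.37) of 13 type 2 cell genes were called lower. Without SEW 1, neither Pdpn (-0.20), Akap5 (-0.31), Etv5 (-0.45) nor Muc1 (-0.36) was called. Etv5 was also not called without SEW 3 (-0.44) or control 3 (-0.42), and Akap5 without SEW 3 (-0.39), control 3 (-0.37) or control 4 (-0.33). The other probe sets of Akap5 were at 0.03 and -0.69. Wt1, a transcription factor of mesothelium, was at 0.93 ± 0.23 (adjusted p = 0.0124), and not called without SEW 1 (0.85) or SEW 3 (0.81).

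Lists of other processes had few calls. Over all genes, 3.77% were called higher and 10.8% lower, and the single calls below are not read as results about their lists. Of 18 cell cycle genes, 0 were called by limma, with 1 at an unadjusted p under 0.05 and 2 called with array weights. Of 20 oxidative stress genes, 0 were called, with 3 at an unadjusted p under 0.05 and 3 called with array weights. Of 15 core clock genes, Per3 alone was called (-0.86 ± 0.28, adjusted p = 0.0442), and not without SEW 1, SEW 2, SEW 3, control 2 or control 3 (-1.02 to -0.71 over the arrays). Of 16 p53 targets, Plk2 was lower (-0.75 ± 0.16, adjusted p = 0.006) and the death receptor gene Fas higher (0.63 ± 0.16, adjusted p = 0.0154). Array means of the p53 list were 9.73, 9.59 and 9.76 in SEW, against 9.58, 9.58, 9.43 and 10.31 in control. The median difference of the list was -0.14, and it ran from -0.19 to 0.09 with 1 array left out. Control 4 was also the highest array for Plk2 (10.97), and without it Plk2 was at -0.61. Plk2 was called in each fit that left out 1 array, while Fas was not called without SEW 2 (0.55), control 2 (0.52) or control 3 (0.56). Of 20 cytokine, chemokine and adhesion genes, Cxcl13 and Ccl2 (0.33) were higher and Tgfb2 (-0.38) lower. Single calls were made for Hdc of the mast cell list (-0.62), Tfrc of the red cell list (-0.44), Gp6 of the platelet list (0.30), Abcg1 of the alveolar macrophage list (-0.26) and Cd55 of the complement list (-0.45). Without SEW 1, neither Ccl2 (0.36), Tgfb2 (-0.31), Gp6 (0.27), Abcg1 (-0.23) nor Cd55 (-0.39) was called, and Tfrc was not called without SEW 3 (-0.38). The other probe sets of Tfrc were at 0.17 and 0.12. Cd55 and Tfrc each lost the call in 1 of the 7 fits that left out 1 array, Tgfb2 in 2 (also without control 3, -0.35), Ccl2 and Abcg1 in 4 each, and Gp6 in 6.

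**Figure D4:**
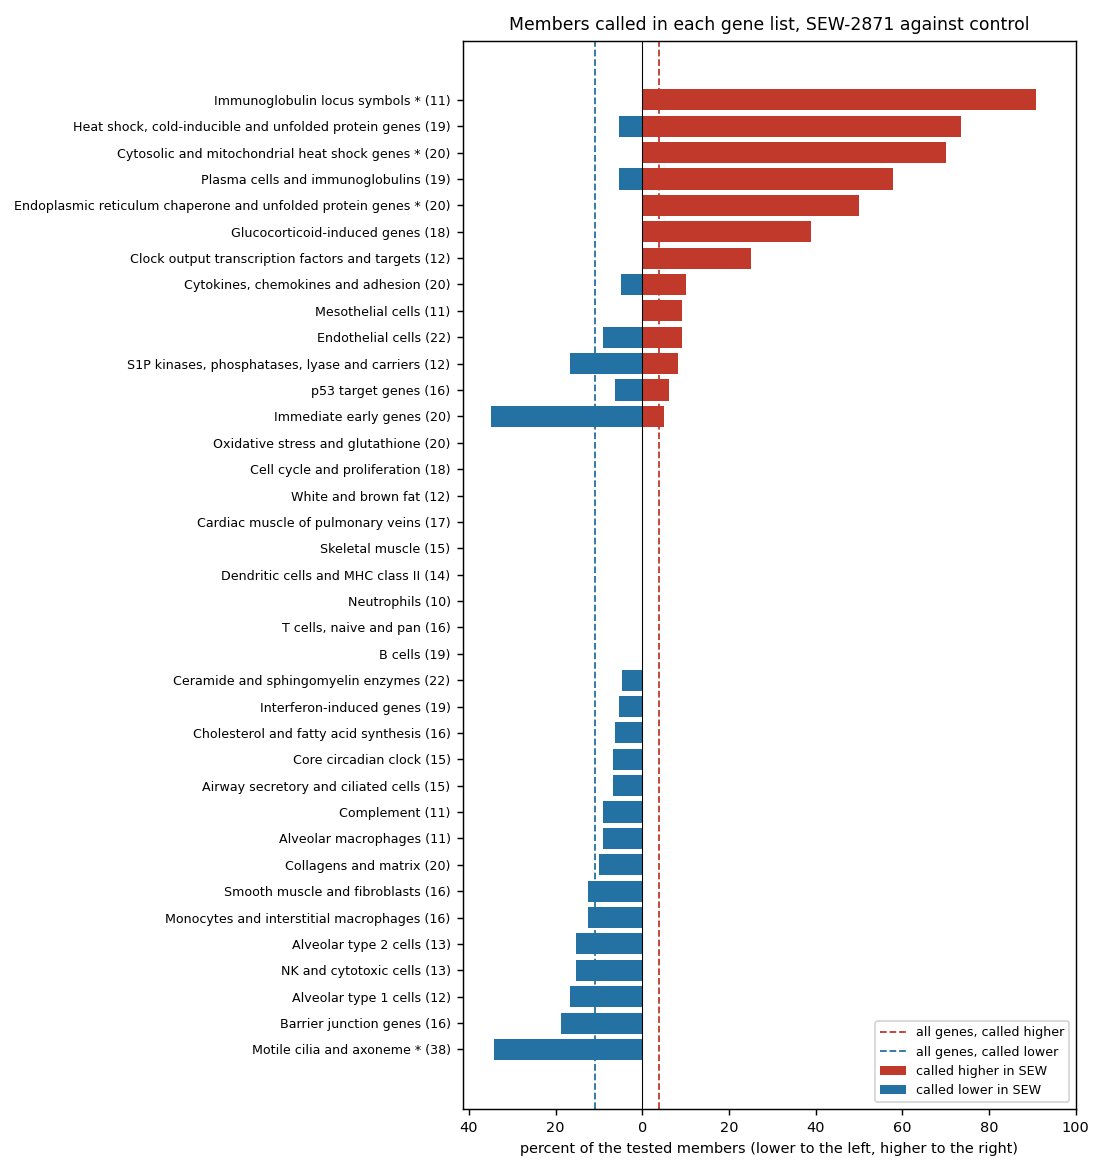
Percent of the tested members of each gene list that were called higher (red, to the right) or lower (blue, to the left) in SEW, with the number tested in parentheses, an asterisk for lists added later, and dashed lines at the percent of all genes, 3.77 higher and 10.8 lower. Immunoglobulin, chaperone, plasma cell and glucocorticoid lists lie far to the right of the dashed line, and motile cilia and immediate early genes to the left. Some lists share genes.

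SEW-2871 was compared with the 2 other compounds at the same dose and schedule, which makes 2 pairs. Against fTyS, the phosphonate analogue of phosphorylated FTY720, 200 genes (1.55%) were called, 35 higher (0.271%) and 165 lower (1.28%) in SEW lungs. Of these, 14 changed more than 2-fold. Glucocorticoid-induced genes led the increases, with 3 of 18 called. Fkbp5 had 10.56, 10.5 and 10.3 in SEW, against 8.31, 8.57 and 8.52 in fTyS, with a wide gap between the groups (1.98 ± 0.43, 95% interval 1.10 to 2.87, adjusted p = 0.0248). As the mean of its probe sets it was at 0.90 and not called. Zbtb16 had 12.37, 12.35 and 12.35 in SEW, against 10.23, 10.78 and 10.56 in fTyS (1.83 ± 0.44, adjusted p = 0.0405). Map3k6 was at 1.71 and Fam107a at 1.76 (adjusted p = 0.038 each). Klhl29 had 7.9, 8.03 and 7.96 in SEW, against 6.9, 7.03 and 6.75 in fTyS (1.07 ± 0.23, adjusted p = 0.0254). The fTyS arrays of Fkbp5 lay among those of control, while FTY arrays, at 9.52, 9.1 and 9.74, lay between SEW and fTyS.

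Genes lower in SEW than in fTyS included Cirbp, with 8.95, 8.84 and 9.12 in SEW and 9.95, 10.25 and 9.96 in fTyS (-1.08 ± 0.22, adjusted p = 0.0198). Adgre4, an adhesion receptor gene of macrophages, had 7.41, 7.55 and 7.43 in SEW and 8.68, 8.21 and 9.16 in fTyS (-1.22 ± 0.21, adjusted p = 0.0111). Tap1, the interferon-induced peptide transporter gene, had 8.51, 8.66 and 8.91 in SEW and 9.47, 9.13 and 10.69 in fTyS (-1.07 ± 0.24, adjusted p = 0.0317). The third fTyS array was far above the others for Tap1. Map2k6 (-1.16) and Cttnbp2 (-1.05) were called lower as well. Of the 10 genes named in this comparison, Adgre4 lost its call only without SEW 1, and the others without 3 to 6 of the 6 arrays. The count of called genes was 3 without SEW 1, 30 without SEW 3, 22 without the first fTyS array and 303 without the third, with 79 and 83 without the second array of SEW and of fTyS.

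Of the 11 immunoglobulin locus genes tested, 0 were called between SEW and fTyS. Jchain had 12.25, 12.37 and 12.55 in SEW, against 11.9, 11.42 and 12.22 in FTY and 12.36, 12.3 and 12.12 in fTyS. The Jchain difference SEW minus fTyS was 0.13 (95% interval -1.09 to 1.35), and SEW minus FTY was 0.54 (-0.68 to 1.76). Both intervals are wide, so equal levels were not shown. Against the shared control arrays, the differences of Jchain were 3.0 for SEW, 2.46 for FTY and 2.87 for fTyS, and those of Ighm 2.48, 1.71 and 2.21. The comparisons with control share the 4 control arrays and are not independent. S1pr1 was 0.46 higher in SEW than in fTyS (95% interval -0.12 to 1.05) and 0.23 higher than in FTY (-0.36 to 0.81), and neither difference was called.

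**Figure D5:**
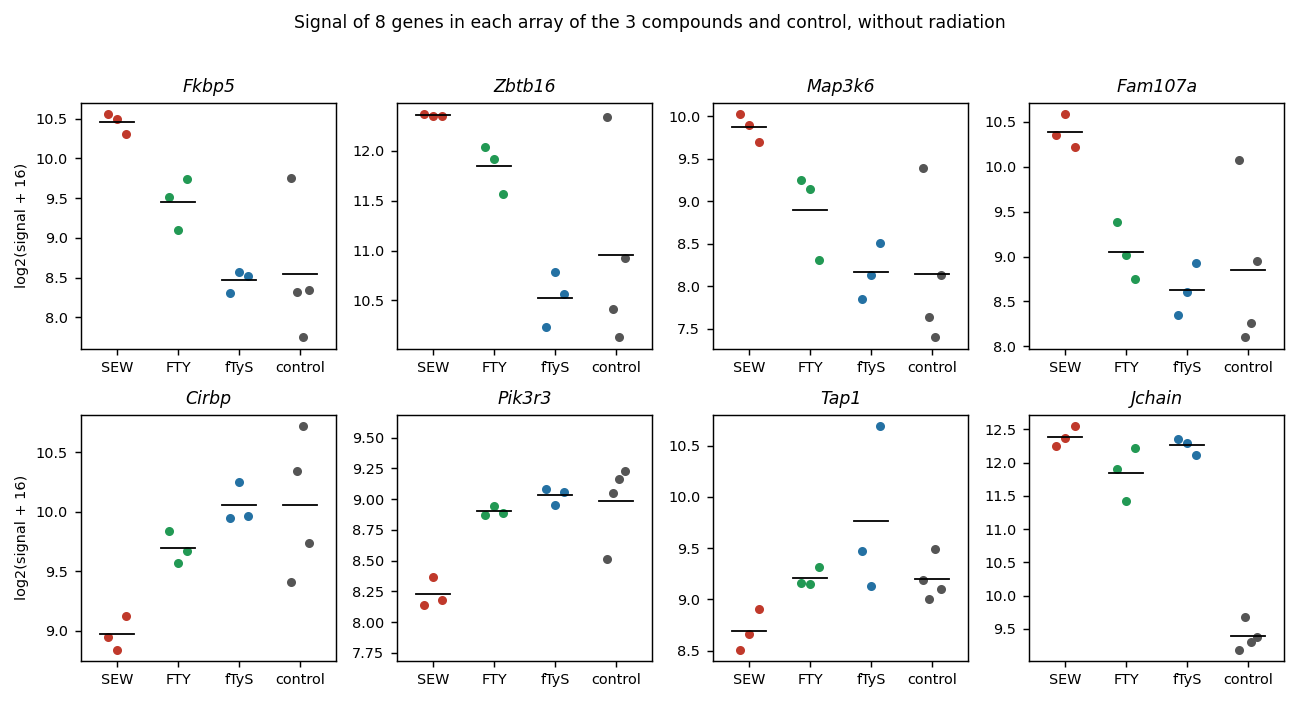
Signal, as log2(signal + 16), of 8 genes in each array of SEW, FTY, fTyS and control without radiation, with lines at the group means. Fkbp5, Zbtb16, Map3k6 and Fam107a were highest in SEW and low in fTyS, whereas Jchain was high with all 3 compounds, between 11.42 and 12.55.

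No gene was called between SEW and FTY (0% of 12937 genes; limma, adjusted p of at most 0.05). At an unadjusted p under 0.05, 1178 genes differed, and limma with array weights called 809. The 5 genes with the smallest p each had arrays that did not overlap. Gria3, a glutamate receptor subunit gene, had 8.14, 8.46 and 8.34 in SEW, against 7.62, 7.69 and 7.46 in FTY (0.72, 95% interval 0.44 to 1.0, adjusted p = 0.257). Pik3r3, a regulatory subunit of phosphoinositide 3-kinase, had 8.14, 8.37 and 8.18 in SEW, against 8.87, 8.94 and 8.89 in FTY (-0.67, adjusted p = 0.257). Dpy19l3 was at -0.55, the homeobox gene Meis2 at -0.47 (adjusted p = 0.257 each) and Spats2 at -0.48 (adjusted p = 0.27). In SEW against fTyS, Gria3 (0.81, adjusted p = 0.00976), Meis2 (-0.56, adjusted p = 0.00976), Pik3r3 (-0.80, adjusted p = 0.01) and Spats2 (-0.48, adjusted p = 0.0219) were called; both comparisons share the SEW arrays. Fkbp5 was 1.0 higher in SEW than in FTY (95% interval 0.11 to 1.89), with an adjusted p of 0.494. A gene can thus differ by this much and not be called.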

How the data were processed

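Lung RNA of 25 mice, in 8 groups of 3 or 4, was measured on Affymetrix mouse arrays, 1 mouse per array. The authors deposited linear signal intensity for each probe set, made with GCOS, the array maker's software, per the submitters' processing notes. The summary method, background correction and scaling are not given in the sources used here. Values ran from 0.53 to 19112.08. Of 45101 probe sets, 64 were array controls, 34945 carried 1 gene symbol, 932 several and 9160 none in the platform annotation, and only those with 1 symbol were used.

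Signals were used as log2(signal + 16). For each of 18193 genes, the probe set with the highest mean over the 25 arrays stood for the gene. Genes at or below the 40th percentile of probe sets (6.49) were left out, which left 12937. One limma fit (limma 3.58.1, R 4.3.3) of 8 group means, with 17 residual degrees of freedom and eBayes with trend, gave each two-sided comparison, and p was adjusted by Benjamini-Hochberg over all genes tested. The threshold for a call was an adjusted p of 0.05. SEs of differences come from limma. The procedure was tested on simulated data with independent noise for each gene. Those data carried no tissue signal or RNA end ratio shared across genes, so the test does not cover such differences between arrays. Precision is limited by how many arrays each group has.

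The 39 gene lists (670 entries, 611 on the array) were chosen with earlier results of these data known, and so was the choice of experiment. Lists of immunoglobulin loci, chaperones and motile cilia were added later. Lists are described by counts and medians, with no test. Named are the 15 genes with the largest called change in each direction without overlap of arrays, up to 4 called members per list, S1P receptors and S1P handling genes, and 5 in each direction (or 5 by p) between compounds; further genes were named after their values were seen.

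Deviations of arrays of the same number correlated at -0.409, -0.803 and -0.224 between SEW and control. Between SEW and fTyS the values were -0.361, -0.813 and -0.472, and between SEW and FTY 0.355, 0.397 and 0.148. The labels state no pairing, and these correlations do not show that arrays of the same number were paired. Alternatives were other scalings, pseudocounts of 1 and 64, filters, the mean of probe sets, array weights, RNA end ratios, tissue means and the replicate number as terms, fewer arrays, and leaving out each array. Chosen after seeing the data were the keratin mean, the actin ratio and leaving out sets of arrays.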

Additional observations from a re-analysis of the deposited data

Results flagged for a closer look

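Control arrays were tested for 1 array far from the other 3, in 134 sets of 4 values (91 named genes and the list means), of which 7 had such an array. Chance gives about 1 in 20, and 7 of 134 is near that share. The arrays below are therefore described and not read as a result. Control 2 stood apart in the mean of skeletal muscle genes (10.93) and of squamous keratins (10.6). Control 4 stood apart in the means of immediate early genes (10.71), p53 targets (10.31), collagens and matrix (11.01) and immunoglobulin locus genes (7.82). The p53 target mean was 9.58, 9.58 and 9.43 in the other controls and 10.2, 10.14 and 10.23 in lungs given radiation alone. That of collagens and matrix was 10.69, 10.67 and 10.69 in the other controls and 10.96, 10.72 and 10.83 with radiation alone. In these lists control 4 was nearer to the mean of radiation alone than to the other controls. The reason was not tested, and control 4 enters every comparison with control. Control 3 stood apart in the clock output gene Noct, with 8.25.

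For 15 of 91 named genes, all arrays of SEW lay on 1 side of control while all arrays of radiation+SEW lay on the other side of radiation alone, the lungs given 25 Gy. These differences in direction were not tested. The same count over all genes was not made, nor that of named genes apart in the same direction, so 15 cannot be set against a background. Of the 91 genes, 81 were called between SEW and control and most were named for that, so selection mostly met the first condition. The largest were in A330076H08Rik, at 0.82 for radiation+SEW minus radiation and -1.03 for SEW minus control, and Nr4a3, at -0.63 and 1.42. Frem1 was at 0.63 and -0.99, D430019H16Rik at 0.54 and -1.17, Tet1 at 0.47 and -1.20, and Col1a1 at 0.45 and -0.69. Plpp1 was at -0.41 and 0.44, Ednrb at 0.34 and -0.26, Pik3r3 at 0.28 and -0.76, and Dpy19l3 at 0.26 and -0.46. Plk2 was at 0.25 and -0.75, Pdgfrb at 0.23 and -0.45, Muc1 at 0.22 and -0.37, Mmp14 at 0.14 and -0.24, and Scgb3a2 at 0.04 and -0.08.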

How the results depend on the processing

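Against control, 1889 genes were called, and 592 to 2183 with 1 array left out. The count was 4427 with array weights, 331 with the Gapdh ratio, 86 with the actin ratio and 746 when the 7 arrays were fitted alone. Without SEW 1, SEW 3 and control 2, the lone SEW array is assumed to vary like the other groups, so no count is given. The other alternatives gave 1362 to 2010, with 598 higher and 1123 lower after quantile normalization, a larger share higher than in the fit reported. Against fTyS, 200 genes were called, and 3 to 303 with 1 array left out. The count was 75 with quantile normalization, 119 with median centring, 67 with the mean of probe sets and 4478 with array weights. It was 115 with the Gapdh ratio, 15 with the actin ratio, 588 with muscle and fat means and 573 with the keratin mean. It was 19 with only the arrays compared, 20 with the 13 arrays without radiation and 308 without control 1 and control 2. Against FTY, 0 genes were called, 809 with array weights and 1 each with the keratin mean and without control 1 and control 2. With the replicate number as a block, 1785, 269 and 0 genes were called against control, fTyS and FTY, so the block left the count against FTY unchanged. Of 81 called genes named against control, 34 were called in each fit that left out 1 array. None was called in every alternative, but these include the fit with a lone SEW array. The cause was not tested. Direction against control reversed for Gria3, which is near 0 (0.02 with quantile normalization, 0.06 with the Gapdh ratio, 0.11 with muscle and fat means, 0.05 with the block, the keratin mean, without SEW 1 or without control 4, 0.08 without SEW 1, SEW 3 and control 2, 0.11 with muscle, fat and keratin means), and, by the mean of probe sets, for F11r (0.09), S1pr3 (0.02) and Sphk1 (-0.03). Without 1 array, Gria3 ran from -0.11 to 0.05 and S1pr4, reversed without control 2, from -0.03 to 0.23. Direction also reversed for Sgpl1 with the actin ratio (0.05) and S1pr2 with muscle, fat and keratin means (0.02).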

Other observations

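Some motile cilia genes, from a list added after the results were seen, were called lower in SEW lungs. Cilia of the airway lining beat by dynein motors that slide microtubules of the axoneme. Of 38 such genes tested, 13 were called lower and 0 higher, with a median of -0.27, against 10.8% of all genes called lower, and 25 were not called. The list of airway secretory and ciliated cells, which was not added later, had 1 of 15 called lower and a median of -0.03. Dnah8, a dynein heavy chain gene, had 6.86, 7.38 and 6.97 in SEW, against 8.07, 8.13, 8.48 and 7.53 in control (-0.98 ± 0.18, adjusted p = 0.00215 by limma). All SEW arrays lay below all control arrays. Spag17, of the central pair of the axoneme, had 7.06, 7.5 and 7.35 in SEW and 7.96, 8.33, 8.2 and 7.93 in control (-0.81 ± 0.16, adjusted p = 0.00383). Pih1d2 was at -0.81, Ttc6 at -0.79, Dnah12 at -0.52, Spag16 at -0.51 and Dnah5 at -0.48. Foxj1, the transcription factor that switches on the ciliary programme, was at -0.01 (adjusted p = 0.93). The list had 4 lower calls without SEW 1 or without control 3 and 15 without control 1. It had 16 with muscle and fat means in the fit, 2 with the Gapdh ratio and 0 with the actin ratio, the last 2 of which differ between the groups.

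Clock output genes had 3 of 12 called higher, against 3.77% of all genes: Pdk4, Tsc22d3 and Noct (0.57 ± 0.15, adjusted p = 0.0183). The first 2 also stand in the glucocorticoid list. Noct was not called without SEW 1 (0.47), SEW 3 (0.57) or control 3 (0.44). The list had 0 higher calls without SEW 1, 1 without SEW 3 or without control 3, 1 with the Gapdh ratio and 0 with the actin ratio.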
